A study of Mus musculus with 6 samples.

Results

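The Fc receptor genes of mouse macrophages were examined in RAW264.7 cells in which an oncoprotein had been switched on. The 6 members, Fcgr1, Fcgr3, Fcgr4, Fcer1g, Fcgr2b and Fcgrt, were taken by gene symbol from a deposited table of 50599 genes, and each matched 1 row. RAW264.7 is a mouse macrophage line. All cells carried a retroviral ∆Raf-1:ER construct, a form of the kinase Raf-1 joined to a hormone-binding part of the oestrogen receptor, had gone through 7 days of hygromycin B (70 µg/mL), and were kept without serum for the last 24 hours. The 3 samples with 4-hydroxytamoxifen (4-OHT, 100 nM), which switches the construct on, are described as senescent through the oncogene. The 3 samples with ethanol vehicle are their controls, and all are from day 3. As 4-OHT samples of cells that lack the construct were not analysed here, an effect of the drug itself and one of the oncoprotein cannot be told apart. Each group has replicates A, B and C, which are not described as separate cultures, so the spread behind the p-values may be technical.

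Fc receptors bind the constant part of antibodies. The activating receptors for immunoglobulin G (IgG), encoded in the mouse by Fcgr1, Fcgr3 and Fcgr4, have no signalling motif of their own. They pair with the gamma chain, the product of Fcer1g, whose tyrosine motif (ITAM) recruits the kinase Syk and starts phagocytosis and cytokine release. Fcgr2b encodes the inhibitory receptor, whose tyrosine motif (ITIM) recruits the lipid phosphatase SHIP1 (gene Inpp5d). Fcgrt encodes the neonatal Fc receptor FcRn, which pairs with beta-2-microglobulin and returns IgG from endosomes to the cell surface.

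Recovered reads came to between 11629150 and 15943722 per library, and values below are normalized counts, reads divided by a size factor of each library. The defining genes of macrophages were read in both groups: of 9 markers with a single row, 8 were tested, with summed levels of 86124 to 109344 with 4-OHT and 116317 to 120671 with vehicle. By limma (adjusted p under 0.05), 4 of the 8 were higher (Cd68, Ptprc, Cd14 and Mrc1) and 3 lower (Lyz2, Csf1r and Adgre1). Msr1 was not called, and Mrc1 rested on few reads, 56 in total with 4-OHT and 38 with vehicle. Over all tested genes, 33% were called higher and 32.5% lower. Lyz2 averaged 42932 with 4-OHT and 67465 with vehicle, Csf1r 10437 with 4-OHT and 17096 with vehicle, and Cd68 13108 with 4-OHT and 9902 with vehicle, while Mertk had 4 reads in total with 4-OHT and 3 with vehicle. Ms4a1 and Cd79b of B cells, Fcer1a, Ms4a2, Cpa3, Tpsb2 and Cma1 of mast cells, Klrb1c, Prf1 and Nkg7 of natural killer and T cells, and S100a9, Ly6g, Camp, Ngp and Retnlg of neutrophils were listed at 0 in all 6 libraries. Summed levels of the marker lists were 265 to 380 with 4-OHT and 294 to 429 with vehicle for 7 B cell genes, most of it Blnk (Cd22 had 70 reads in total with 4-OHT and 5 with vehicle, and Pax5 37 with 4-OHT and 6 with vehicle), and 1.13 to 3.40 with 4-OHT and 1.98 to 6.49 with vehicle for 8 natural killer and T cell genes. They were 18.1 to 29.5 with 4-OHT and 4.94 to 10.8 with vehicle for 8 mast cell and basophil genes, and 27.2 to 73.6 with 4-OHT and 0 to 3.60 with vehicle for 8 neutrophil genes. The mast cell and basophil sum was Gata2 (37 reads in total with 4-OHT and 4 with vehicle) and Hdc (31 with 4-OHT and 22 with vehicle), besides 1 read of Kit with vehicle. Almost all of the neutrophil sum was S100a8, with 121 reads in total with 4-OHT and 4 with vehicle, and Mpo had 12 with 4-OHT and 2 with vehicle. The part of these genes in the results below was not tested.

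The 6 genes did not move as a block. Fcgr3 rose 4.53-fold and the inhibitory Fcgr2b 2.47-fold, while Fcgrt fell to 0.413 times its vehicle level, and in these 3 genes the groups did not overlap. Smaller changes were called in Fcgr1 and Fcer1g, which were higher, and in Fcgr4, which was lower, and in these 3 genes the groups overlapped. In such bulk samples fewer cells of a type and less RNA per cell cannot be told apart. All 6 passed the filter on low counts and all 6 were called by limma at an adjusted p under 0.05, where 65.5% of all 11828 tested genes were called. Of the 6, 4 were higher, against 33% of all tested genes, and 2 lower, against 32.5%. Groups that did not overlap were found in 70.7% of all tested genes (all 4-OHT samples above in 35% and below in 35.7%), and called changes of at least 2-fold in 10.1% upwards and 2.87% downwards. The median log2 change was 0.36 over the 6 genes and -0.018 over all tested genes. With equal library totals 4 of the 6 were called, Fcgr3 and Fcgr2b higher and Fcgr4 and Fcgrt lower, where 74.5% of all tested genes were called, 19.1% higher and 55.4% lower. In the authors' deposited table the adjusted p of the 6 genes lay between 1.71e-23 for Fcgr3 and 0.0398 for Fcgr1.

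**Figure D1:**
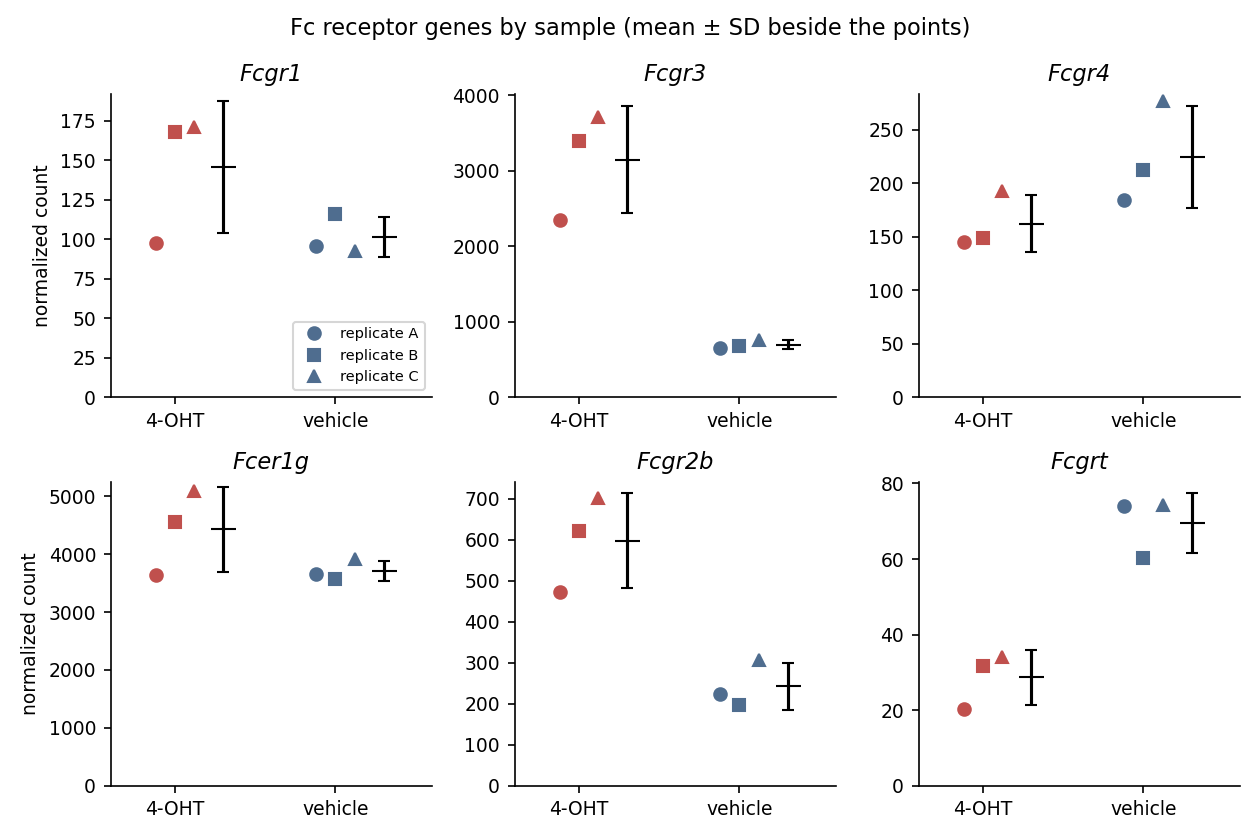
Normalized counts (vertical axis, from 0) of the 6 genes in the 3 samples with 4-OHT (red) and the 3 with vehicle (blue); symbols mark the replicate letter and bars the mean ± SD. Fcgr3 and Fcgr2b lie wholly above the vehicle samples with 4-OHT and Fcgrt wholly below them, and replicate A is the lowest 4-OHT sample in all 6 genes.

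Fcgr3 encodes the low-affinity activating receptor for IgG, FcγRIII (ENSMUSG00000059498.13, minus strand of chromosome 1, 171051174 to 171064935, GRCm38/mm10). Its normalized counts were 2344, 3396 and 3706 in 4-OHT samples A, B and C, against 645, 677 and 761 in vehicle samples A, B and C. Every 4-OHT sample lay far above every vehicle sample. The means were 3149 ± 714 with 4-OHT and 695 ± 59.9 with vehicle (SD, n = 3 each), a log2 change of 2.16 ± 0.14 (SE, limma adjusted p = 1.16e-07). Of the 11828 tested genes, 471 had a higher log2 change. Per kilobase of exon, its level stood above that of 97.7% of tested genes with 4-OHT and 88.6% with vehicle, over the 9462 tested genes whose identifier and version stand in GENCODE M21.

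Fcgr4 encodes another activating receptor, which binds the mouse subclasses IgG2a and IgG2b (ENSMUSG00000059089.4, plus strand of chromosome 1, 171018920 to 171029761). It had 145, 149 and 193 normalized counts in 4-OHT samples A, B and C, against 184, 213 and 277 in vehicle samples A, B and C. The highest 4-OHT sample lay above the lowest vehicle sample, and the other two lay below all vehicle samples. It averaged 162 ± 26.6 with 4-OHT and 225 ± 47.4 with vehicle (SD, n = 3 each), a log2 change of -0.46 ± 0.15 (SE, adjusted p = 0.0203 by limma). The call was lost without 4-OHT replicate B (adjusted p = 0.0832) and without vehicle replicate C (adjusted p = 0.0984), and the direction held in every alternative run, from -0.76 to -0.30.

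Fcgr1 encodes the high-affinity receptor FcγRI, the receptor that can hold single IgG molecules (ENSMUSG00000015947.10, minus strand of chromosome 3, 96282909 to 96293969). Its counts were 97.4, 168 and 171 in 4-OHT samples A, B and C, against 95.5, 116 and 92.3 in vehicle samples A, B and C. Samples B and C with 4-OHT lay above all vehicle samples, and sample A lay among them. The mean was 146 ± 41.7 with 4-OHT and 101 ± 12.7 with vehicle (SD, n = 3 each), a log2 change of 0.48 ± 0.20 (SE, adjusted p = 0.0490 by limma). This call stood just inside the threshold: it was lost in 8 of 15 alternatives, among them each of the fits without 4-OHT replicate B or C or without vehicle replicate A or C, and the log2 change was 0.18 with equal library totals and 0.75 without 4-OHT replicate A.

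The 250 bases before the RefSeq start of these 3 activating receptor genes (GRCm38.p6) are shown because the genes, which share a signalling chain, moved apart. RefSeq gives Fcgr3 a pair of starts, of which the one shown is the further upstream; its window lies inside the span of the gene given above and holds 27 exon bases of GENCODE M21. The windows were searched on both strands for the letters TTCNNNGAA (the GAS site, bound by STAT factors), GAAANNGAAA (the interferon response element ISRE), GAGGAAG (a core bound by the myeloid factor PU.1), GGAAGT (ETS core), TGANTCA (AP-1) and TTGCNNAA (C/EBP), and matches are in capitals, where overlapping ones run together.
Fcgr3, chr1:171059404-171059653, minus strand: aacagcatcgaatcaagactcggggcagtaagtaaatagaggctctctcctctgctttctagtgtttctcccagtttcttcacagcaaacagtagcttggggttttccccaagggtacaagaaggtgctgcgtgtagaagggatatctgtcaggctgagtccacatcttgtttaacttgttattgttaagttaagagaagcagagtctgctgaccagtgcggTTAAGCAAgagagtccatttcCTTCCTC
Fcgr4, chr1:171018676-171018925, plus strand: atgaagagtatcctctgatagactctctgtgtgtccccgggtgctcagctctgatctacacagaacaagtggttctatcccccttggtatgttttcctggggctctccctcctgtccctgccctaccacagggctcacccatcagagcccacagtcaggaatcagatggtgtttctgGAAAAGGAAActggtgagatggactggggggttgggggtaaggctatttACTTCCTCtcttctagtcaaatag
Fcgr1, chr3:96293970-96294219, minus strand: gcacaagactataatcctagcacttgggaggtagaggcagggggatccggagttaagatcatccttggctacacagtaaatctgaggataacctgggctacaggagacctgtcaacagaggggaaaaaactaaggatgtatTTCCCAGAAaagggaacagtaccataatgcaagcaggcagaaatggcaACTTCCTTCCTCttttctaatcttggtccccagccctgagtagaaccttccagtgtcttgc
All 3 windows hold GAGGAAG, read on the opposite strand as CTTCCTC, beginning 7, 23 and 56 bases before the start shown in Fcgr3, Fcgr4 and Fcgr1, and 16 bases before the other start of Fcgr3. It is found in 10.6% of the 32851 windows of this length in the same table. The GAS letters stand in Fcgr1 only, as TTCCCAGAA at 109 bases before the start, and in 7.02% of all windows. The ISRE letters stand in Fcgr4 only, as GAAAAGGAAA at 73 bases before the start, and in 2.98% of all windows. Fcgr3 alone of the 3 has the C/EBP letters (9.56% of all windows), 28 bases before the start shown and 37 before the other. Among the other members, Fcgrt, which fell, also has the C/EBP letters, 239 bases before its start. Fcgr2b, which rose, has GGAAGT but not GAGGAAG or the C/EBP letters. GGAAGT overlaps the GAGGAAG match in Fcgr4 and in Fcgr1, and is found in 19.7% of all windows. AP-1 letters are in 0 of the 3 windows and in 6.75% of all windows. These are matches of letters, not measured binding.

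Fcer1g encodes the gamma chain itself (ENSMUSG00000058715.11, minus strand of chromosome 1, 171229572 to 171234365). It was the most abundant of the 6, with 3647, 4551 and 5098 normalized counts in 4-OHT samples A, B and C, against 3657, 3569 and 3908 in vehicle samples A, B and C. Sample A with 4-OHT lay among the vehicle samples and the other two above them. The mean was 4432 ± 733 with 4-OHT and 3712 ± 176 with vehicle (SD, n = 3 each), 1.19-fold higher, with a log2 change of 0.24 ± 0.10 (SE, adjusted p = 0.0481 by limma). The direction of this change depended on scaling, at -0.063 with equal library totals (adjusted p = 0.498). The call was also lost on leaving out any single library other than 4-OHT replicate A, where the log2 change rose to 0.38 (adjusted p = 3.85e-05).

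**Figure D2:**
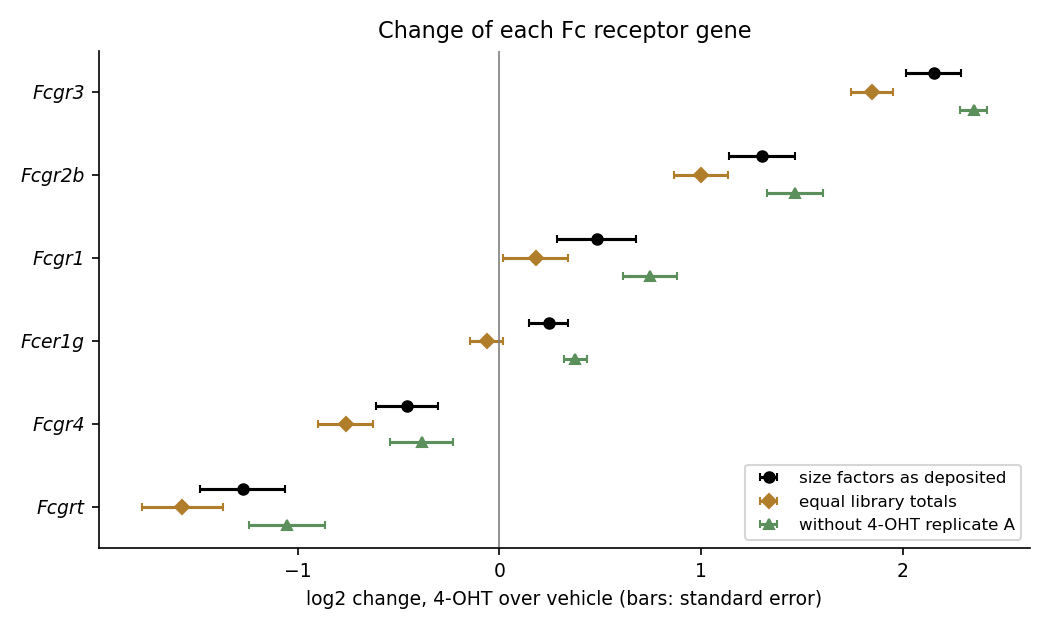
Log2 change of each gene, 4-OHT over vehicle (horizontal axis; points are the fitted change, bars its standard error), with the deposited size factors, with equal library totals and without 4-OHT replicate A. Fcgr3, Fcgr2b, Fcgr4 and Fcgrt keep their direction in all 3 fits, and Fcer1g lies at 0.24, -0.063 and 0.38.

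Because longer transcripts give more reads, levels of different genes were compared per kilobase of exon (GENCODE M21). With 4-OHT, Fcgr3 came to 1350, 1956 and 2135 normalized counts per kilobase in samples A, B and C, against 372, 390 and 438 with vehicle. Fcgr3 made up 89.8%, 91.4% and 90.7% of the summed activating receptor level per kilobase in 4-OHT samples A, B and C, against 66.9%, 64.6% and 63.1% in vehicle samples A, B and C. The share of Fcgr4 averaged 6.57% ± 1.08 with 4-OHT and 28.7% ± 2.73 with vehicle, and that of Fcgr1 2.78% ± 0.268 with 4-OHT and 6.39% ± 1.15 with vehicle (SD, n = 3 each). The sum of the 3 activating receptors per kilobase was 1999 ± 443 with 4-OHT and 618 ± 70.7 with vehicle, 3.23-fold higher. The level of Fcer1g over this sum was 2.78, 2.43 and 2.48 in 4-OHT samples A, B and C, against 7.54, 6.76 and 6.44 in vehicle samples A, B and C. These groups did not overlap: per kilobase, the gamma chain transcript stood above the sum of these 3 receptors in all 6 samples, by a smaller factor with 4-OHT. With no division by length the ratio averaged 1.30 with 4-OHT and 3.65 with vehicle. Other receptors that use the gamma chain are not in this sum, so an excess over all its partners is not shown. How much protein each transcript gives was not measured.

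Fcgr2b encodes the inhibitory receptor FcγRIIB (ENSMUSG00000026656.15, minus strand of chromosome 1, 170958617 to 170976547). Its normalized counts were 471, 622 and 700.5 in 4-OHT samples A, B and C, against 224, 197 and 306 in vehicle samples A, B and C. All 4-OHT samples lay above all vehicle samples. The mean was 598 ± 116 with 4-OHT and 242 ± 57.02 with vehicle (SD, n = 3 each), a log2 change of 1.30 ± 0.16 (SE, adjusted p = 3.14e-05 by limma). So the counts of both the inhibitory receptor and the main activating one rose. Per kilobase, Fcgr2b over the sum of the activating receptors was 0.0541, 0.0502 and 0.0514 in 4-OHT samples A, B and C, against 0.0697, 0.0563 and 0.0762 in vehicle samples A, B and C. This ratio was lower in every 4-OHT sample, at 0.770 times its vehicle mean, and 0.725 times with the length of the longest coding transcript.

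**Figure D3:**
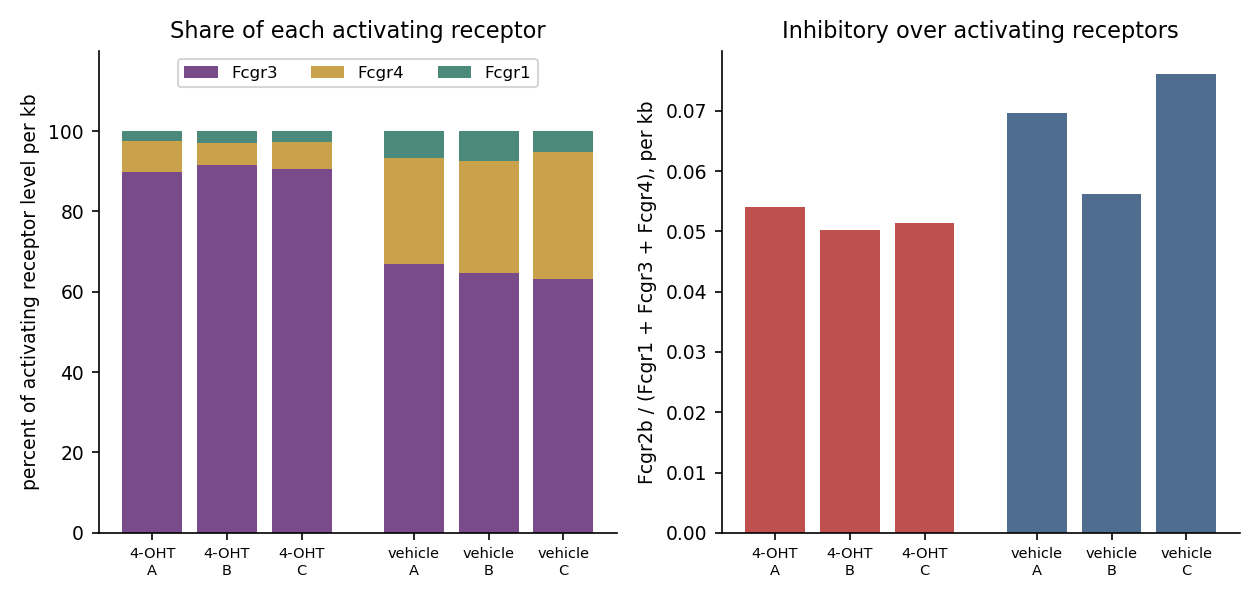
Left, share of Fcgr3, Fcgr4 and Fcgr1 in the summed activating receptor level per kilobase (percent) in each sample; right, Fcgr2b over that sum, per kilobase. Fcgr3 holds 89.8% to 91.4% of the activating level in the 4-OHT samples and 63.1% to 66.9% in the vehicle samples, and the ratio on the right is lower in each 4-OHT sample (0.0502 to 0.0541) than in each vehicle sample (0.0563 to 0.0762).

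Fcgr2b and Fcgr3 have closely related outer domains, so short reads may fit both. Among GENCODE M21 transcripts, 166 of the 1733 stretches of 50 bases in Fcgr3 (9.58%) are also in Fcgr2b, where they make up 2.92% of 5685. Fcgr1, Fcgr4, Fcer1g and Fcgrt share 0 stretches of this length with any other gene. How the authors' counting divided reads that fit both genes is not given in the sources used here. Fcgr2b was also fitted with 9.58% of each sample's Fcgr3 count taken off. It then had 247, 296 and 345 normalized counts in 4-OHT samples A, B and C, against 162, 132 and 233 in vehicle samples A, B and C. At this amount the groups did not overlap, with a 1.68-fold difference of means and a log2 change of 0.78 (adjusted p = 0.00299 by limma). The amount is not an upper bound. Reads given to Fcgr2b would be missing from the Fcgr3 count, and 9.58% is a share over all Fcgr3 transcripts together. Whether the rise of Fcgr2b would remain with larger amounts was not tested. Exons of Fcgr2b also overlap an antisense gene, Gm38204, over 155 bases, and that gene had 1 read in each group. No exon of the other members overlaps an exon of another gene.

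Fcgrt, the neonatal receptor (ENSMUSG00000003420.8, minus strand of chromosome 7, 45092990 to 45103851), was the rarest of the 6 and the one that fell furthest. It had 20.4, 31.7 and 34.0 normalized counts in 4-OHT samples A, B and C, from 18, 29 and 30 reads, against 74.1, 60.3 and 74.2 in vehicle samples A, B and C, from 76, 61 and 103 reads. Every 4-OHT sample lay below every vehicle sample. The mean was 28.7 ± 7.28 with 4-OHT and 69.5 ± 7.98 with vehicle (SD, n = 3 each), a log2 change of -1.27 ± 0.21 (SE, adjusted p = 0.000247 by limma), and 131 of the tested genes had a lower one. B2m, the gene of its light chain beta-2-microglobulin, had 9179, 11437 and 13144 normalized counts in 4-OHT samples A, B and C, against 8322, 8714 and 9971 in vehicle samples A, B and C. Its groups overlapped, and its log2 change of 0.31 ± 0.11 (adjusted p = 0.0312 by limma) shrank to 0.0045 with equal library totals (adjusted p = 0.968). The call on B2m was lost in 6 of 15 alternatives, among them those without 4-OHT replicate B or C or without vehicle replicate A or B.

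With 4-OHT the order of levels per kilobase was Fcer1g (5071 ± 838), Fcgr3 (1814 ± 411), Fcgr4 (129 ± 21.2), Fcgr2b (103 ± 20.1), Fcgr1 (56.2 ± 16.1) and Fcgrt (13.6 ± 3.46), and the samples of Fcgr4 and Fcgr2b overlapped. With vehicle it was Fcer1g (4247 ± 201), Fcgr3 (400.1 ± 34.5), Fcgr4 (179 ± 37.8), Fcgr2b (41.9 ± 9.85), Fcgr1 (39.1 ± 4.91) and Fcgrt (33.1 ± 3.80), and the samples of Fcgr2b overlapped those of Fcgr1 and of Fcgrt (SD, n = 3 each). By the length of the longest coding transcript, Fcgr2b (169 ± 32.9) stood above Fcgr4 (129 ± 21.2) with 4-OHT, and with vehicle Fcgr4 (179 ± 37.8) above Fcgr2b (68.4 ± 16.1), so the order of these genes depends on the length used.

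Fcgr2b, Fcgr4, Fcgr3 and Fcer1g lie within 275.7 kb of chromosome 1, in this order. Neighbours on the same strip did not share one direction. Of 31 other genes of the table between 100 kb before Fcgr2b and 100 kb after Fcer1g, 11 passed the filter. Of these, 5 rose, 4 fell and 2 were not called, with log2 changes from -0.63 to 1.82 and a median of -0.0014. Over all tested genes, 33% were called higher and 32.5% lower. Fcgr4, between Fcgr2b and Fcgr3, was lower while both of them were higher. The antibody receptor relatives Fcrla and Fcrlb of the same window had 2 and 1 reads in total with 4-OHT and 3 and 1 with vehicle, and were not tested.

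**Figure D4:**
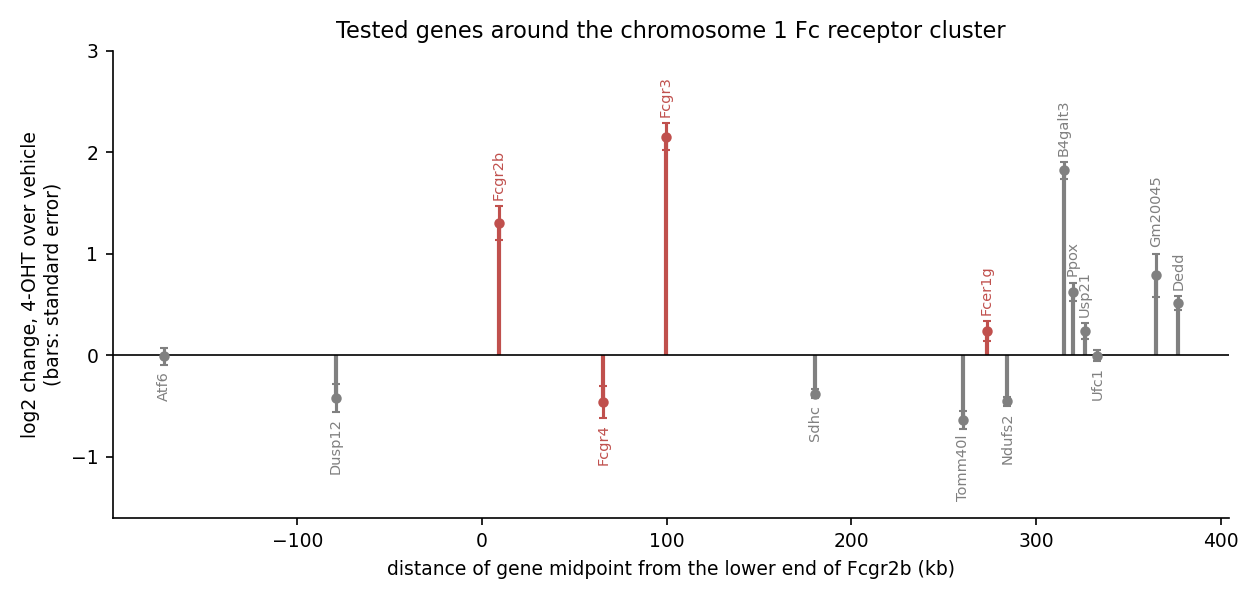
Log2 change (vertical axis, 4-OHT over vehicle, bars are standard errors) of the 15 tested genes around the chromosome 1 cluster, by distance of the gene's midpoint from the lower end of Fcgr2b in kb. Fc receptor genes are red and others grey; Fcgr3 at 2.16 and Fcgr2b at 1.30 flank Fcgr4 at -0.46.

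By the root mean square difference of centred log2 profiles over the 6 samples, the tested genes most like Fcgr3 were C3ar1, Tgoln1 and Ggh, at differences of 0.082, 0.083 and 0.092. For Fcgr2b they were Stk36, Ccdc157 and Mcoln2 (0.084 to 0.114), and for Fcgrt Mcf2l, Rab26os and Zkscan4 (0.090 to 0.107). For Fcgr1 they were Sco2, Mapkapk5 and Tarm1 (0.093 to 0.118), for Fcgr4 Psmb9, Atg10 and Clec4a3 (0.045 to 0.086), and for Fcer1g Ptdss1, Sidt2 and Asah1 (0.033 to 0.036). With 2 groups of 3 samples such likeness rests mostly on the size of the group difference.

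Among the other receptors for immunoglobulin, 2 of 13 genes were tested. Trim21, a cytosolic antibody receptor and ubiquitin ligase, rose 1.67-fold. Fcrl1, a member of the Fc receptor-like family best known from B cells, was at 0.883 times its vehicle level, with 1650 ± 124 normalized counts with 4-OHT and 1870 ± 49.9 with vehicle (adjusted p = 0.0183 by limma, and not called in 4 of 15 alternatives, among them those without vehicle replicate A or B). Fcer1a and Ms4a2, the other chains of the receptor for immunoglobulin E, and Fcer2a, Fcamr, Fcmr and Fcrl6 were listed at 0 in all 6 libraries.

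Of 26 genes that carry the signal of activating receptors, none was filtered out, and 12 rose, 9 fell and 5 were not called, with a median log2 change of 0.060. With equal library totals, which moved the median of all genes by -0.30, 7 were higher and 14 lower. For this list and those below, the shares over all tested genes were 33% higher and 32.5% lower. With equal library totals these shares were 19.1% and 55.4%. Syk, the kinase that docks on the phosphorylated gamma chain, rose 2.39-fold, with 6197, 5763 and 5754 normalized counts in 4-OHT samples A, B and C, against 2511, 2407 and 2493 in vehicle samples A, B and C (adjusted p = 2.91e-09 by limma). Src and Lyn, kinases of the Src family, which phosphorylates the ITAM, rose 2.35-fold and 1.59-fold. Gab2, a docking adaptor, rose 1.99-fold.

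The 14 genes that dampen Fc receptor signals were also split, with 6 higher, 4 lower and 4 not called, a median of 0.064, and 5 higher and 8 lower with equal library totals. Inpp5d (SHIP1), the phosphatase recruited by FcγRIIB, rose 2.59-fold, with 4516, 3986 and 3891 normalized counts in 4-OHT samples A, B and C, against 1653, 1587 and 1541 in vehicle samples A, B and C. Cblb, a ubiquitin ligase, rose 3.97-fold, Dok3, an adaptor of SHIP1, 2.09-fold, and Rasa1, a Ras GTPase-activating protein, 1.95-fold. Ptpn6, the tyrosine phosphatase SHP-1, fell to 0.411 times its vehicle level, with 1552, 1549 and 1553 normalized counts in 4-OHT samples A, B and C, against 3754, 3818 and 3761 in vehicle samples A, B and C (adjusted p = 8.40e-10 by limma).

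The adaptor Tyrobp (DAP12), a relative of the gamma chain, and receptors that use either chain made a list of 15 genes; the 11 tested ones, Tyrobp included, split into 5 higher, 4 lower and 2 not called, with a median of 0.32 and with 2 higher and 4 lower under equal library totals. Tyrobp itself fell to 0.731 times its vehicle level, with 4410 ± 253 normalized counts with 4-OHT and 6031 ± 328 with vehicle. Trem2, a lipid-sensing receptor that pairs with it, fell to 0.486 times. Trem1, an amplifier of inflammation, rose on few reads, with 64 reads in total with 4-OHT and 4 with vehicle, a log2 change of 3.64 (3.16 without vehicle replicate A, and 2.21 to 4.67 over all alternatives). Cd300lb and Clec5a rose 1.38-fold and 1.31-fold, and the call on Clec5a was lost with equal library totals.

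The 23 actin regulators used in phagocytosis all passed the filter, with 9 higher, 6 lower and 8 not called, with a median of -0.015, against 2 higher and 14 lower with equal library totals. Myo10, a motor of filopodia and phagocytic cups, rose 4.94-fold, with 9622 to 10509 normalized counts in the 4-OHT samples and 1977 to 2090 in the vehicle samples. Dnm2, the GTPase dynamin, rose 2.54-fold, and Actr3 of the Arp2/3 complex 1.35-fold, a call lost with equal library totals. Pak1, a kinase downstream of Rac, and Gsn (gelsolin) fell to 0.626 and 0.741 times their vehicle levels.

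Of 10 transcription factors known to act on Fc receptor genes, 6 were higher, 2 lower and 2 not called, with a median of 0.26, against 3 higher and 4 lower with equal library totals. Stat2 and Irf9, which carry interferon signals, rose 1.73-fold and 1.54-fold. Cebpa fell to 0.342 times its vehicle level, with 57.8, 53.5 and 51.0 normalized counts in 4-OHT samples A, B and C, against 193, 151 and 130 in vehicle samples A, B and C. Cebpb rose 1.24-fold, a call lost with equal library totals, where its log2 change was 0.0010. Spi1, the gene of PU.1, chosen after its value was seen, was at 0.880 times its vehicle level (3963 ± 129 with 4-OHT and 4502 ± 386 with vehicle).

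**Figure D5:**
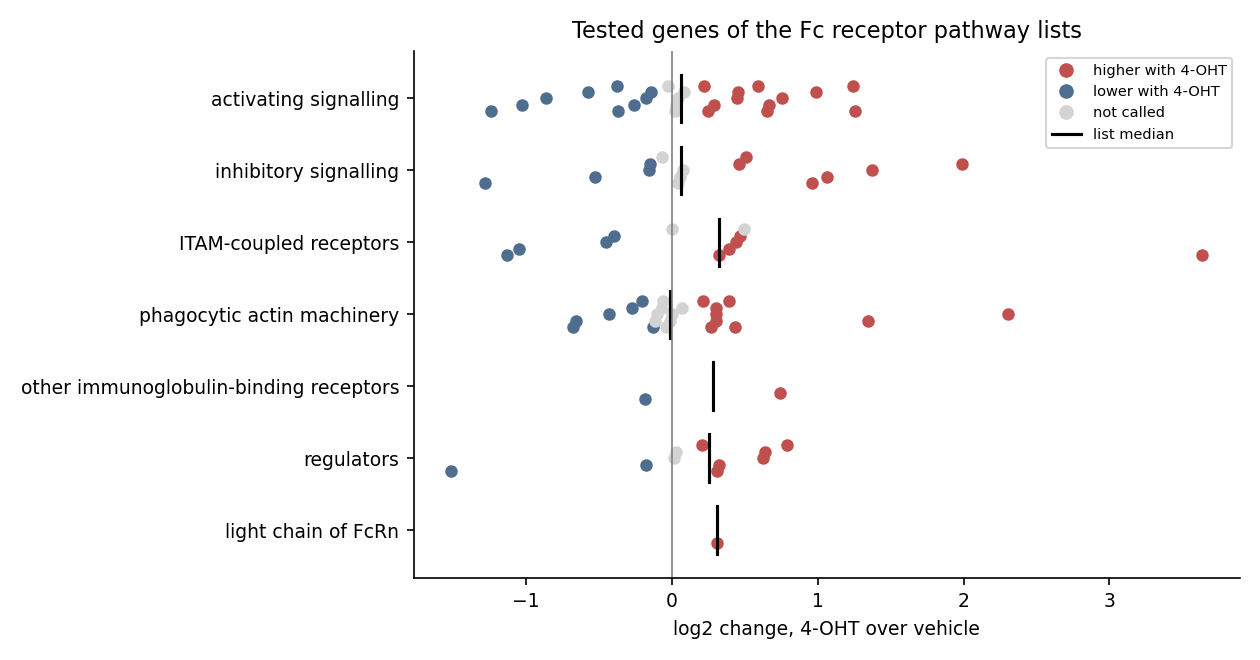
Log2 change, 4-OHT over vehicle (horizontal axis), of every tested gene in the 7 pathway lists (vertical axis); red points are higher, blue lower and grey not called, and black lines are list medians. Medians of the 4 signalling, actin and ITAM lists lie between -0.015 and 0.32, with calls on both sides of 0 in each, where 33% of all tested genes were called higher and 32.5% lower.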

How the data were processed

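Per the submitters' processing notes, bcl2fastq 2.20, Trimmomatic 0.35, STAR 2.5.1b, RSEM and DESeq2 1.18.1 were used, with GRCm38 and mm10 named as builds. What each tool did, the annotation, the strand setting and the handling of shared reads are not given in the sources used here. The deposited signal is a gene's count divided by a size factor: in each column 100% of positive values are whole multiples of 1 step, within 1e-06, and division by that step gave reads. In vehicle replicate B the step (0.989) is close to 1, so its reads are less certain. Log2 fold changes, their standard errors (a score), p-values and adjusted p-values in the table are the authors' own, per the file headers. Of 50600 lines, 1 had no values.

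Genes with enough reads (edgeR 4.0.16 filterByExpr, minimum count 10) numbered 11828. They were tested on log2(value + 1) with limma 3.58.1 in R 4.3.3 (mean-variance trend, group as the only term, two-sided, Benjamini-Hochberg over all tested genes, threshold 0.05). The procedure was checked on simulated data with far fewer changed genes, which does not check it under changes as broad as these. Folds are ratios of mean normalized counts; log2 changes are on the log2(value + 1) scale, which understates changes of rare genes. Alternatives were other pseudocounts, no filter, equal library totals, TMM scaling, edgeR with and without vehicle replicate B, DESeq2 1.42.0, a replicate block and leaving out each library. Identifiers of 90.4% of the table, all members among them, stand at the same place in GENCODE M21. All 6 members matched a RefSeq promoter (GRCm38.p6). Named were the members, up to 5 tested genes of each list with the smallest p, and the 3 nearest profiles of each member, without unnamed gene models and pseudogenes; some genes this rule takes are not reported here. The members and lists were chosen with earlier results of these data known.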

Additional observations from a re-analysis of the deposited data

How the results depend on the processing

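The calls on Fcgr3, Fcgr2b and Fcgrt held in all 15 alternatives chosen at the outset, with log2 changes of 1.85 to 2.35, 1.00 to 1.49 and -1.57 to -1.05. Fcgr2b was 0.78 with 9.58% of the Fcgr3 count taken off, an alternative chosen after seeing the data and not an upper bound on shared reads. The call on Fcgr1 was lost with a pseudocount of 0.5 (0.48), no filter (0.48), TMM scaling (0.50) and equal library totals (0.18). That on Fcer1g was lost with a pseudocount of 0.5 (0.24), no filter (0.24) and edgeR without vehicle replicate B (0.24), and its sign reversed with equal library totals (-0.063). Leaving out each library gave 0.34 to 0.75 for Fcgr1, 0.14 to 0.38 for Fcer1g and -0.59 to -0.30 for Fcgr4. The members called higher were then 2 to 4 and lower 1 to 2, and higher 2 with a pseudocount of 0.5, no filter or equal library totals. Causes were not tested, other than that equal totals move the median of all genes by -0.30. Under equal totals all genes were 2259 higher and 6549 lower. Activating signalling genes were then 7 and 14, inhibitory 5 and 8, ITAM-coupled 2 and 4, actin 2 and 14 and regulators 3 and 4, and B2m was not called (0 higher). DESeq2 and edgeR without vehicle replicate B each gave 2 lower inhibitory genes and 0 lower immunoglobulin receptors, and that edgeR fit also 1 lower regulator and 0 calls on B2m. Leaving out each library gave 6 to 8 lower activating, 2 to 4 lower inhibitory, 4 to 8 lower actin, 0 to 1 lower immunoglobulin receptor and 1 to 2 lower regulator genes, and 0 to 1 calls on B2m. Fcgr2b over the activating receptors was 0.0672 with 4-OHT and 0.0927 with vehicle by coding transcript length, an alternative chosen after seeing the data, and 0.174 with 4-OHT and 0.236 with vehicle with no division by length. With a replicate block all 6 members were called, 4 higher and 2 lower, and each standard error was smaller (0.095 against 0.15 for Fcgr4). Same-letter samples deviated together at r = 0.109, 0.0363 and 0.121 for A, B and C over tested genes. Samples of different letters lay lower, between r = -0.118 and 0.0063. As 1 same-letter pair was under 0.1, the letters were not taken to pair the samples in the main fit. Whether samples of a letter share a culture or day was not tested. Fcgrt rests on few reads (77 in total with 4-OHT and 240 with vehicle).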
